A study of Drosophila melanogaster with 2 samples.

Results

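Binding of the zinc-finger protein Sob (sister of odd and bowl) at promoters of genes that encode no protein was described from 233 peak summits. They were chosen by position alone: the summit lay within 1000 bp of an annotated transcription start site (TSS) of a non-coding gene and not within 1000 bp of a TSS of a protein-coding gene. These were 233 of the 7001 peaks on the main chromosome arms, or 3.33% (95% Wilson interval 2.93 to 3.77, which here and below covers counting error only). The nearest non-coding gene was a long non-coding RNA (lncRNA) for 160 summits, an antisense RNA (asRNA) for 20, a microRNA (miRNA) hairpin for 18, a transfer RNA (tRNA) for 15 and a small nucleolar RNA (snoRNA) for 10. A small nuclear RNA (snRNA) was nearest for 5, a pseudogene for 3 and another non-coding RNA for 2, and no summit was nearest to a ribosomal RNA gene. The summits belonged to 210 different genes.

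The study is a chromatin immunoprecipitation and sequencing (ChIP-seq) experiment on whole Drosophila melanogaster embryos aged 0 to 24 h, with 1 group of 2 biological replicates and no second condition. Both replicates came from the sob-GFP strain, in which Sob carries an enhanced green fluorescent protein (eGFP) tag. The complexes were precipitated with an antibody against GFP from chromatin sonicated to 200 to 800 bp, and a control experiment is named in the labels. Every tissue and age of embryogenesis was mixed in each sample, so a peak cannot be placed in a cell type. The values come from peak lists made by the authors, in which each peak has a position and a signal over the control, a number with no stated scale. The read depth behind the lists is unknown. With 1 group, no comparison between conditions exists, and the values below are descriptions without p-values.

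Sob belongs to the odd-skipped family of zinc-finger proteins with Odd, Drm and Bowl, which act in segmentation, gut and leg development. Non-coding genes use several kinds of promoter. Most lncRNA and miRNA genes are transcribed by RNA polymerase II, and a miRNA is cut from a primary transcript whose own start can lie far from the hairpin. The spliceosomal snRNA genes have a compact promoter with a proximal sequence element, where the SNAPc complex binds, and tRNA genes carry their promoter inside the gene and are read by RNA polymerase III.

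The sequences below are those on which the results for snRNA genes turn, since a single promoter element is shared by the snRNA genes with a summit away from coding promoters. Each is the 80 bases before the start of the gene, read 5′ to 3′ on the strand of the gene from RefSeq's copy of release 6 of the genome (coordinates of dm6). Capitals mark the letters ATTCNCAAC, which lie in the proximal sequence element.
snRNA:U1:95Ca, chr3R:23859631-23859710, minus strand: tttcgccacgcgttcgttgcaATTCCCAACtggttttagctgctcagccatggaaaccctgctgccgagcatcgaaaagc
snRNA:U1:21D, chr2L:901655-901734, minus strand: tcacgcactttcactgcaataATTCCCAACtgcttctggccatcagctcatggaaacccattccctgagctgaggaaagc
snRNA:U4:39B, chr2L:21215179-21215258, minus strand: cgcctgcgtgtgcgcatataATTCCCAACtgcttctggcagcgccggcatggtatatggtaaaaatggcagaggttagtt
snRNA:U5:63BC, chr3L:3090721-3090800, plus strand: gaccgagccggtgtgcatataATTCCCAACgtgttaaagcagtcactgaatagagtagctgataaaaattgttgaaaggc
snRNA:U6:96Ac, chr3R:24557135-24557214, plus strand: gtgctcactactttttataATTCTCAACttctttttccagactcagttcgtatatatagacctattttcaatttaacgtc

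The summits of highest signal lay at lncRNA genes, and 61 bases around 4 of them are given because they show how different the sequence under strong peaks was. They are written on the plus strand of the same genome, with the summit base in capitals. The stretch at lncRNA:CR44619 held 19.7% G and C and that at lncRNA:CR43287 also 19.7%, against 52.5% at lncRNA:CR45643 and 37.7% at lncRNA:CR31044.
lncRNA:CR44619, chrX:12751376-12751436: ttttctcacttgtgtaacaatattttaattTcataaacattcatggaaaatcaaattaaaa
lncRNA:CR43287, chrX:7706961-7707021: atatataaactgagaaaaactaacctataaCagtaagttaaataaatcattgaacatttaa
lncRNA:CR45643, chr3R:16222429-16222489: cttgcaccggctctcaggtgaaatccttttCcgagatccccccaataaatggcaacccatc
lncRNA:CR31044, chr3R:29214417-29214477: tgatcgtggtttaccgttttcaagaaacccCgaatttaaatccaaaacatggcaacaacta

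Among miRNA hairpins with a summit, the mature arms best known by function are given with their seed (bases 2 to 8, the part that pairs with targets) in capitals. They were read from the annotated positions and are written as RNA.
mir-ban 3p arm, chr3L:642259-642281: uGAGAUCAuuuugaaagcugauu
mir-34 5p arm, chr3R:10100952-10100975: uGGCAGUGugguuagcugguugug
mir-275 3p arm, chr2L:7425853-7425875: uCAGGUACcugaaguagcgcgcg
mir-92b 3p arm, chr3R:25651457-25651478: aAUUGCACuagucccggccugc
mir-276a 3p arm, chr3L:10365281-10365302: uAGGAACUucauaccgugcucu
Over the 21 arms of 11 hairpins that were read, 21 different seeds were found, so no 2 arms shared a seed.

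The peaks at non-coding promoters were ordinary in signal, and the strongest of them were at lncRNA genes. Their highest signal was 1783.5, against 3864.5 at coding promoters and 4455.1 away from any TSS. Their median signal was 123.1 (95% order-statistic interval 113.4 to 138.4, quartiles 98.9 and 209.3), against 133.4 over all peaks, 141.4 over the 4181 peaks at coding promoters and 122.7 over the 2587 peaks away from any TSS. The ratio of the first median to that of all peaks was 0.922 with an interval of 0.850 to 1.04, which includes equality. Of the 100 strongest peaks on the main arms, 8 were among the 233 and all 8 were at lncRNA genes. Coding promoters held 79 of the 100, and 13 were away from any TSS. The 233 were 3.33% of all peaks. Among the strongest 10% of all peaks were 25 of the 233, or 10.7%, against 12.5% of coding-promoter peaks and 5.95% of peaks away from a TSS. At the other end, 11 of the 233 had a signal under 50, and all 11 had a stronger peak within 1000 bp.

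**Figure D1:**
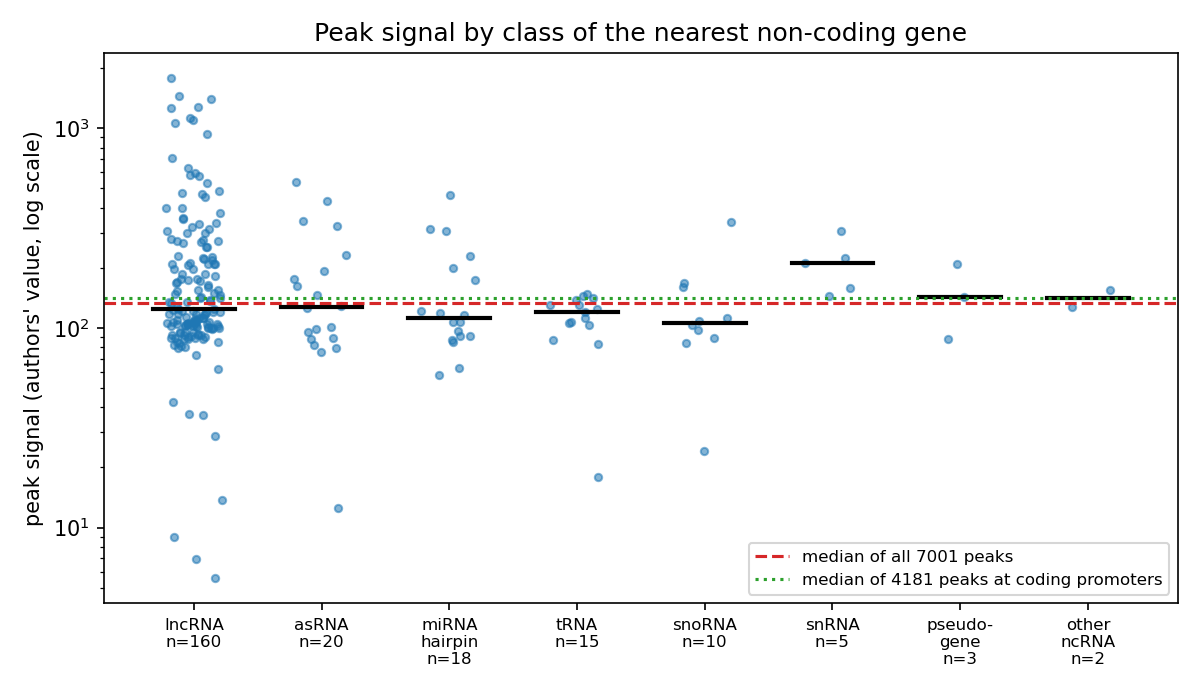
Peak signal (the authors' value, log scale) of each of the 233 peaks by the class of the nearest non-coding gene; black bars are class medians and the dashed and dotted lines are the medians of all 7001 peaks and of the 4181 peaks at coding promoters. The lncRNA class reaches 1783.5, while all 5 snRNA peaks lie above the median of all peaks.

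Class medians were close to one another except for the snRNA class. The median signal was 123.7 at lncRNA genes, 127.2 at asRNA genes, 111.5 at miRNA hairpins, 120.6 at tRNA genes, 105.7 at snoRNA genes and 142.0 at pseudogenes. At snRNA genes it was 211.0, and its 5 values ran from 144.3 to 304.4, all above the median of all peaks. The tRNA class had the lowest ceiling of the classes with 10 or more peaks: its strongest peak had a signal of 148.0.

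The replicates recorded the peaks at non-coding promoters about as often as other peaks. A thresholded peak of replicate 1's own list overlapped 134 of the 233 (57.5%), where 60.2% of all main-arm peaks were overlapped. For replicate 2 the count was 141 (60.5%), against 61.5% of all peaks. Both replicates' lists covered 90 (38.6%, 32.6 to 45.0), against 43.4% of all peaks, 48.1% at coding promoters and 36.1% away from a TSS. The conservative list, which the deposited file lists name so, held 152 (65.2%), against 68.4% of all peaks. Neither own list covered 48 (20.6%). These shares lie near the background, and the lists share reads with the main list, so they are no independent check.

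Recovery in both lists rose with signal. Of the 58 peaks in the strongest 25%, 96.6% were covered by both own lists, and of the 59 in the weakest 25% 5.08% were. The same shares were 96.9% and 7.54% over all peaks and 97.6% and 8.60% at coding promoters, so the 233 were near the background. Among the 100 strongest peaks on the arms the 8 at lncRNA genes were all in both own lists, near the 96.9% of the strongest 25% of all peaks. The tRNA class had 1 of 15 (6.67%) in both lists, 4 in the list of replicate 1 and 9 in that of replicate 2. Its signals had quartiles of 104.5 and 134.6. Of all peaks with a signal from 98.6 to 133.4, 9.37% were in both lists, and of those from 133.4 to 214.4, 59.7% were. Since 4 of the 15 tRNA peaks lay in the higher range, neither share is a full match for the class. All 5 snRNA peaks were in the list of replicate 1 and 4 of 5 in that of replicate 2. Each replicate also has an unthresholded ranked list, in which 224 of the 233 had a peak in replicate 1 and 231 in replicate 2; the value given below is the strongest overlapping one. Over the 222 with both values the median ratio of replicate 1 to replicate 2 was 0.959 (quartiles 0.662 and 1.25), and 98 were higher in replicate 1.

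**Figure D2:**
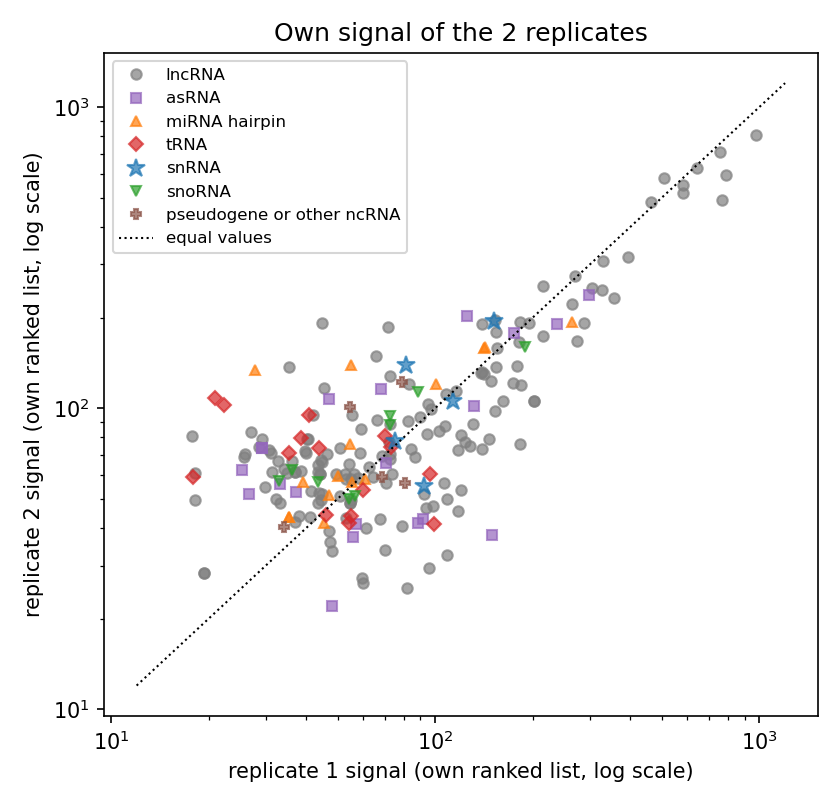
Signal of the strongest overlapping peak in each replicate's own ranked list (both axes log scale) for the 222 peaks with a value in both replicates, by class; the dotted line marks equal values. The strong lncRNA peaks lie along the line. Of all 222 peaks 98 were higher in replicate 1, as were 6 of the 15 tRNA peaks, 3 of the 15 hairpin peaks and 3 of the 9 snoRNA peaks.

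Summits were spread widely around non-coding TSSs. Within 250 bp of the nearest one lay 89 of 233 (38.2%, 32.2 to 44.6), where an even spread over the window would give 25%, and the same share at coding promoters was 73.1%. Within 100 bp the shares were 17.2% and 46.1%, and the median distance was 377 bp at non-coding against 111 bp at coding TSSs. Summits lay upstream of the non-coding TSS in 129 cases (55.4%) and downstream in 103 (44.2%), against 69.0% upstream at coding promoters. Annotated starts of lncRNA genes are often approximate, and for miRNA, tRNA and snoRNA genes the annotated start is that of the processed RNA, not that of the primary transcript. Whether the wide spread comes from the annotation was not tested. The summits with the closest starts, the snRNA peaks, lay within 152 bp.

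**Figure D3:**
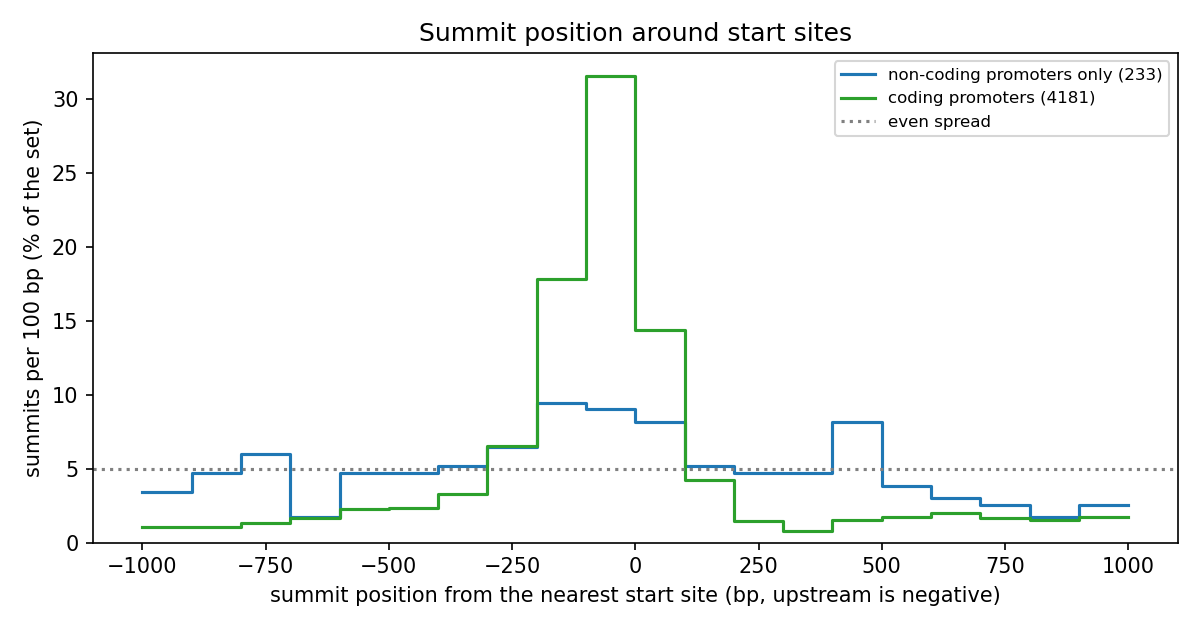
Share of summits per 100 bp (%, vertical axis) by position from the nearest start site (bp, upstream negative) for the 233 summits at non-coding promoters and the 4181 at coding promoters; the dotted line is an even spread. The coding curve peaks at 31.6% in the 100 bp before the start, where the non-coding curve reaches 9.01%.

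Among the summits kept by the rule, those at antisense genes lay mostly on the upstream side. Of the 20 at asRNA genes, 18 lay upstream of the antisense start (90%, 69.9 to 97.2), against 83 of 160 at lncRNA genes (51.9%, 44.2 to 59.5). The rule left out summits within 1000 bp of a coding TSS, and it did so unevenly. Any summit within 1000 bp was found for 117 of 503 asRNA genes, and a kept summit for 19. For lncRNA genes the counts were 266 of 1944 and 150. The side of the removed summits was not counted, so these shares describe the kept summits only. Whether the rule itself gave the upstream excess was not tested. Upstream of an antisense RNA is often the body of the gene it faces: 14 of the 20 summits were inside a protein-coding gene and 12 in one on the opposite strand. The strongest lay at asRNA:CR44512, with a signal of 536.6 (297.3 in replicate 1 and 237.3 in replicate 2), 874 bp upstream in an intron of Zw, which encodes glucose-6-phosphate dehydrogenase. The next was at asRNA:CR45804, with 433.2, in an intron of Prps.

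The strongest lncRNA locus was that of lncRNA:CR44619 on X. One peak reached 1783.5 at 461 bp upstream of its start, and a second reached 1255.6 at 490 bp downstream. Replicate 1 gave 975.9 and 767.5 for them, and replicate 2 gave 805.0 and 490.6. Both replicates therefore put the upstream peak first. The nearest coding TSS, that of CG4004, was 5089 bp from the upstream summit. A weaker peak, at lncRNA:Vinr, lay beside them with a signal of 82.2, from 18.2 in replicate 1 and 60.8 in replicate 2.

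The other leading lncRNA peaks are given with the coding gene that was nearest or that held the summit. The peak at lncRNA:CR44339 had 1451 (758.5 and 706.2 in replicates 1 and 2) and lay 183 bp upstream of its start, with Psc, a Polycomb-group gene, as the nearest coding gene. That at lncRNA:CR45643 had 1408 (788.5 and 595.8) and lay 936 bp upstream, near tara, a trithorax-group gene. An intron of CHES-1-like, a forkhead-domain gene, held the peak at lncRNA:CR43287, with 1124 (581.7 and 552.7). All 3 were high in both replicates. Introns of osa, which encodes a subunit of the Brahma chromatin remodelling complex, held 4 peaks, the strongest at lncRNA:CR46035 with 1094 (581.5 and 519.6) and at lncRNA:CR46036 with 939.2 (462.3 and 482.2). At lncRNA:CR31840 the summit lay 9 bp from the start, with 1066 (507.6 and 581.7), between coding genes and nearest to hll at 2911 bp. The last 3 named by signal were at lncRNA:CR45997 in an intron of mbl, which encodes a splicing regulator (706.2), at lncRNA:CR44867 in an intron of beat-Ib (629.5) and at lncRNA:CR44810 near slbo, the C/EBP gene of border cells (598.2).

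Neighbours of the tagged gene itself were also among the peaks. At lncRNA:TS2, whose summit was 6758 bp from the sob TSS, the signal was 154.6, from 108.9 in replicate 1 and 49.9 in replicate 2. At lncRNA:CR43823, 10384 bp from it, the signal was 91.6, from 34.9 and 60.95. The order of the replicates differed between them.

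Genes for miRNAs were reached both at the hairpin and at the start of the lncRNA that holds it. The 18 hairpin summits fell on 14 different hairpins, and 16 more summits were nearest to 12 lncRNAs that contain 14 hairpins. From these hairpins the closest such summit lay 699 bp (mir-375) to 43262 bp (mir-iab-8) away. In all, 34 of the 233 summits were nearest to a hairpin or to a lncRNA that holds one, a share that was not counted for all peaks. The strongest was at lncRNA:CR31044, the host of mir-279 and mir-996, which act in olfactory neuron specification: its summit lay just upstream of the annotated start, with 1271 (640.5 in replicate 1 and 629.4 in replicate 2). The nearest coding TSS, that of eEF1gamma, was 5725 bp away. At lncRNA:CR43650, host of mir-8, a regulator of growth, there were 3 peaks, and the strongest had 331.4 (139.4 and 190.6), at 118 bp from its start and 861 bp from the hairpin. lncRNA:CR43626, host of mir-282, had 269.3 (182.4 and 76.1), and lncRNA:CR43651, host of mir-14, had 228.7 (44.8 and 191.9). In these 2 the replicates differed by more than 2-fold, in opposite directions.

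Of the 34 annotated lncRNA genes that contain a hairpin on the same strand, 12 had a start within 1000 bp of a summit (35.3%, 21.5 to 52.1), against 254 of the 1910 other lncRNA genes (13.3%, 11.8 to 14.9). Hosts have more annotated starts, and counted per start site the shares were 28.1% (18.1 to 40.8, of 57) and 13.1% (11.7 to 14.6, of 2007). Starts of the same gene can lie near the same summit, so the intervals per start site may be too narrow, and the second count is no separate check. No test was made, and the comparison was chosen after the values were seen. Among the 12 hosts were also lncRNA:CR43459 (mir-34 and mir-277, signal 142.7), lncRNA:CR43857 (mir-275, 104.6 at its stronger peak) and lncRNA:CR43334, which holds mir-ban, the growth regulator bantam (100.04).

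At hairpins themselves the signal ran from 58.4 to 463.1. The strongest were mir-9377, in an intron of Tis11, an mRNA decay factor, with 463.1 (263.6 in replicate 1 and 193.5 in replicate 2), and mir-9378, in an intron of CG17124, with 313.9 (142.5 and 159.3). Then came mir-308 with 307.1 (141.9 and 158.2) and mir-275 with 228.8 (100.4 and 120.4). These 4 were of similar height in both replicates. The next, mir-4978 in an intron of mam, the Notch co-activator mastermind, had 199.3 (54.8 and 139.0), and mir-4962 in an intron of Tlk had 172.8 (27.8 and 134.1). Both were higher in replicate 2. At mir-ban the summit was 732 bp upstream of the hairpin with 107.3 (47.0 and 51.5). At mir-34, known for its part in ageing, it was 224 bp upstream with 115.6 (55.4 and 56.9). Since 7 of the 18 lie in introns of coding genes, such a peak cannot be told apart from one that belongs to the coding gene.

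The snRNA genes, which encode the RNA core of the spliceosome, had peaks that all stood above the median of all peaks. At snRNA:U1:95Ca the signal was 304.4 (151.5 in replicate 1 and 194.3 in replicate 2), with the summit 63 bp inside the gene. At snRNA:U5:63BC it was 223.3 (81.1 and 139.5), and at snRNA:U6:96Ac 211.0 (113.7 and 105.7). Those at snRNA:U4:39B, with 158.3 (75.3 and 77.8), and snRNA:U1:21D, with 144.3 (92.3 and 55.3), were lower. Of the 5 summits 4 lay downstream of the start, 63 to 152 bp into the gene, and that at U6:96Ac lay 31 bp upstream. The same peak is within 1000 bp of snRNA:U6:96Ab, whose start is 492 bp away, so 6 snRNA genes are reached.

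All 6 of these genes carried ATTCNCAAC in the 80 bases before their start, beginning 59 to 61 bases upstream of it. Over both strands it was found before 21 of the 32 annotated snRNA genes (65.6%), before 18 of 3875 TSSs of other non-coding genes (0.465%) and before 65 of 19253 TSSs of coding genes (0.338%). It was found in the gene class both with and without a peak: it stood before 9 of the 10 snRNA genes with any summit within 1000 bp and before 12 of the 22 without one. The letters were chosen after the sequences had been seen, and these counts depend on the last letter. Genes counted as lacking ATTCNCAAC include snRNA:U6:96Aa, snRNA:U1:95Cc, snRNA:U6atac and snRNA:7SKa, which carry ATTCCCAA followed by another base. The counts therefore do not show that such genes lack the element, or that it goes with a peak. Within 50 bp of the summit itself the full letters were present in 1 of the 5 snRNA peaks and in 23 of all 7001. The other 4 snRNA genes with a summit had it near a coding promoter: snRNA:U2:34ABb (255.9), snRNA:7SKa (228.6), snRNA:U5:35D (215.9) and snRNA:U11 (145.5). Many snRNA genes have near-identical copies, and how reads that match several copies were treated is not given in the sources used here.

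The tRNA peaks were of modest height, and few were recorded in both own lists. Of all peaks, 9.37% of those with a signal from 98.6 to 133.4 and 59.7% of those from 133.4 to 214.4 were in both. The 4 strongest tRNA peaks lay in the higher range. The 6 strongest tRNA peaks were at tRNA:Thr-AGT-1-1 with 148.0 (70.0 in replicate 1 and 80.8 in replicate 2), tRNA:Gln-TTG-2-1 with 144.0 (96.7 and 60.4), tRNA:Pro-AGG-1-1 with 140.5 (72.9 and 74.1), tRNA:Glu-CTC-3-1 with 138.4 (98.9 and 41.3), tRNA:Asp-GTC-1-6 with 130.9 (43.8 and 73.7) and tRNA:Arg-CCT-1-2 with 130.5 (22.3 and 102.4). Only that at tRNA:Pro-AGG-1-1 was in both replicates' thresholded lists. In all, 25 tRNA genes for 10 amino acids lay within 1000 bp of one of the 233 summits, and 6 of them were isoleucine genes. The B box, the inner promoter element of tRNA genes (GTTCGANTC), was within 50 bp of 0 of the 15 tRNA summits and of 22 of all 7001 (0.314%). The Wilson limit for 0 of 15 is 20.4%, and 3 of the 15 summits lay within 100 bp of the tRNA start (median distance 301 bp), so the count says little about the genes' own B boxes. As for the snRNA genes above, tRNA genes have near-identical copies, and the treatment of reads that match several is unknown.

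Most RNAs of the snoRNA class direct chemical modification of ribosomal RNA. The strongest was at snoRNA:Or-ACA6, in an intron of egr, the fly tumour necrosis factor gene, with 337.3 (189.8 in replicate 1 and 159.5 in replicate 2). It stood apart, since the next were snoRNA:Or-CD4 with 168.0 (72.3 and 87.7), snoRNA:U3:54Ab with 160.0 (72.5 and 94.0) and snoRNA:abba-a with 112.2 (56.4 and 51.2). snoRNA:Or-ACA9, which the annotation gives as ncRNA and which is counted here with the other non-coding RNAs, had 126.9 (68.8 and 59.2), in an intron of AdamTS-A. The 3 pseudogene peaks had 207.8 at CR31032, 142.0 at CR43670 and 88.2 at CR43972.

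Among 34 non-coding genes listed for their known roles, 5 had one of the 233 summits. RNaseMRP:RNA, the RNA of the enzyme that cuts ribosomal RNA precursors, had 154.7 (54.8 in replicate 1 and 101.1 in replicate 2) at 159 bp from its start, inside CG10365. lncRNA:roX1, a dosage compensation RNA of the male X chromosome, had 89.9 (33.2 and 48.3) at 712 bp, in neither thresholded list. lncRNA:iab8, a transcript of the bithorax complex, had 2 summits, of 99.4 at 228 bp and 6.92 at 4 bp, with a peak in replicate 1 alone (42.0). The remaining ones were mir-ban and mir-8. For a further 5 the summit lay at a coding promoter too: Uhg4 (688.9), snRNA:7SKa (228.6), Uhg1 (183.3), Uhg2 (158.3) and Uhg5 (125.3), where the Uhg genes are hosts of snoRNAs. No summit lay within 1000 bp of 22, among them lncRNA:roX2 (nearest 1423 bp away), lncRNA:let7C (1264 bp), lncRNA:Hsromega, lncRNA:bxd, both 7SL genes, RNaseP:RNA, mir-1, mir-9a and mir-iab-4. Of the rest, pgc is protein-coding in the annotation and Uhg6 was not matched.

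Counted by gene rather than by peak, non-coding genes had a summit within 1000 bp less often than coding ones. Of all 17683 genes, 29.2% had one, against 4589 of 13945 protein-coding genes (32.9%, 32.1 to 33.7) and 583 of 3738 non-coding genes (15.6%, 14.5 to 16.8). By class the share was 31.2% of 32 snRNA genes, 29.0% of 269 snoRNA genes, 23.3% of 503 asRNA genes, 17.6% of 290 tRNA genes, 13.8% of 260 hairpins, 13.7% of 1944 lncRNA genes, 5.97% of 268 pseudogenes and 0 of 99 ribosomal RNA genes (3 counts, taken as the limit of a count of 0, would be 3.03%, and the Wilson limit is 3.74%). Restricting to genes over 1000 bp from any coding TSS lowered the shares. Over all non-coding genes the share was then 247 of 2658 (9.29%, 8.25 to 10.5). By class it was 25.9% (13.2 to 44.7, 7 of 27) for snRNA, 13.0% (8.92 to 18.7) for snoRNA and 12.3% (8.55 to 17.4) for tRNA genes. It was 10.2% (8.78 to 11.8) for lncRNA, 9.14% (5.86 to 14.0) for hairpins and 6.22% (3.67 to 10.3) for asRNA genes. Other non-coding RNAs had 8.82% and pseudogenes 1.06%. The snoRNA, tRNA, lncRNA, hairpin and asRNA intervals include the 9.29% of all non-coding genes. For asRNA genes the count went from 117 of 503 to 13 of 209. In the own list of replicate 1 alone, 9.66% of all tRNA genes and 7.31% of all hairpins had a summit within 1000 bp. In that of replicate 2 alone the shares were 14.5% and 10%. The order of classes also depends on the distance: at 500 bp the share was 25% of snRNA, 11.2% of snoRNA, 10% of tRNA genes and 6.15% of hairpins, and at 2000 bp it was 34.4%, 52.0%, 27.6% and 17.7%. In the stronger 50% of peaks it was 7.59% for tRNA genes and 6.15% for hairpins. Genes in clusters can share a summit, as snRNA:U6:96Ab and snRNA:U6:96Ac did, and 5 tRNA summits had 2 or more tRNA genes within 1000 bp. Intervals for the snRNA, snoRNA and tRNA classes, which count genes as separate, may therefore be too narrow. The 99 ribosomal RNA genes are repeated, so limits that count them as separate genes may be too narrow as well. Only genes on the 6 main arms were counted. The 0 for these genes is also subject to the unknown treatment of reads that match several copies.

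**Figure D4:**
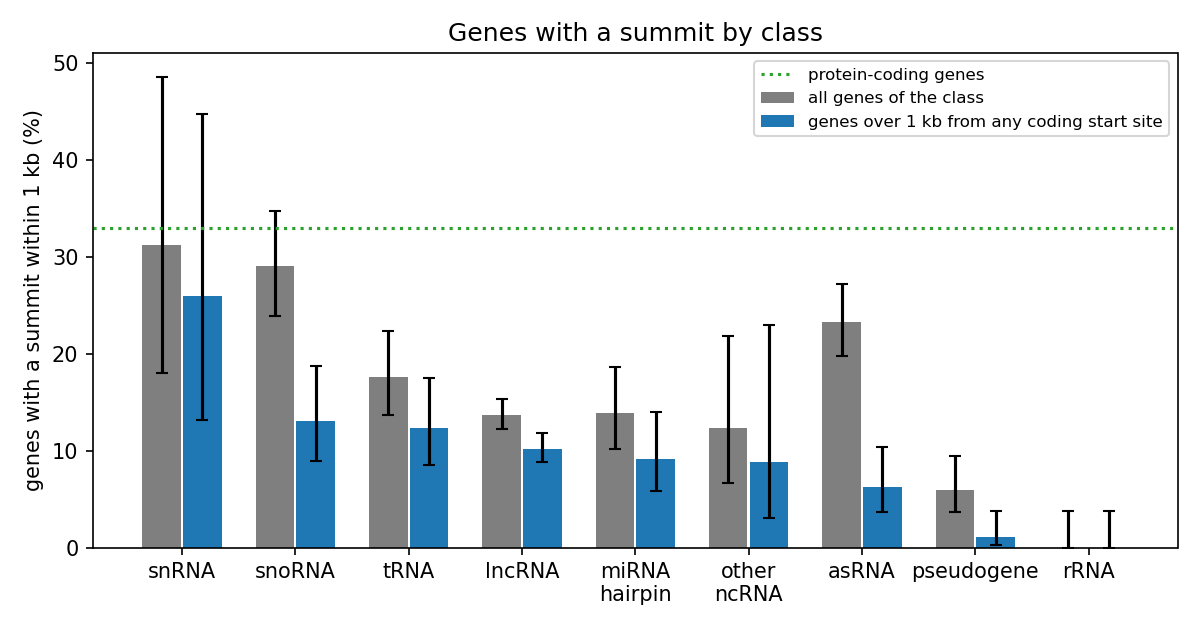
Share of annotated genes (%) with a summit within 1 kb of a TSS by class, for all genes of the class (grey) and for those over 1 kb from any coding start site (blue), with 95% Wilson intervals; the dotted line is the 32.9% of protein-coding genes. The snRNA bars are highest with the widest intervals, and the ribosomal RNA bars are at 0.

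The 233 summits were spread over 195 loci when summits within 5000 bp were joined. Of these loci 170 held 1 summit, 16 held 2, 6 held 3, 2 held 4 and 1 held 5. The locus of 5 lay on 3R at 16208346 to 16213765, near mtSSB, with signals of 80.1 to 145.9 at lncRNA:CR45640, lncRNA:CR45637, lncRNA:CR45638 and lncRNA:CR45642. The share of the 233 on 2L and 2R was 24.0% and 24.9%, above the 18.6% and 19.2% of all peaks, and the X held 12.9% against 17.4%. No summit of the 233 was on arm 4, which held 16 peaks.

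Most of the 233 lay outside protein-coding genes. Between coding genes were 147 (63.1%), in introns of coding genes 77 (33.0%), in coding exons 6 and in untranslated exons 3. These places were not counted for all peaks, and the rule leaves out summits near coding TSSs. The counts therefore describe the 233 and show no trait particular to them. The coding exons included 5 at asRNA genes. The median distance to the nearest coding TSS was 3385 bp, and 62 of the 233 had one within 2000 bp. The exons of non-coding genes held 74 summits, their introns 12 and neither 147. A single non-coding gene lay within 1000 bp of 201 summits.

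The base composition under the summit went with signal in the same direction as at other peaks. The sequence within 50 bp of the summit held 39.5% ± 11.2 G and C (SD, n = 233), against 40.7% ± 8.44 in the flanks, windows of equal width centred 500 bp to either side. In the strongest 25% the summit had 33.7% ± 8.74 (n = 58) and the flanks 42.4% ± 8.82, and in the weakest 43.5% ± 10.7 (n = 59) and 39.6% ± 7.87. Summits were poorer in G and C than their flanks in 46 of the 58 strongest and in 24 of the 59 weakest. At coding promoters the strongest 25% had 33.9% ± 10.2 at the summit and 45.4% ± 8.06 in the flanks, a difference in the same direction. No test was made.

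**Figure D5:**
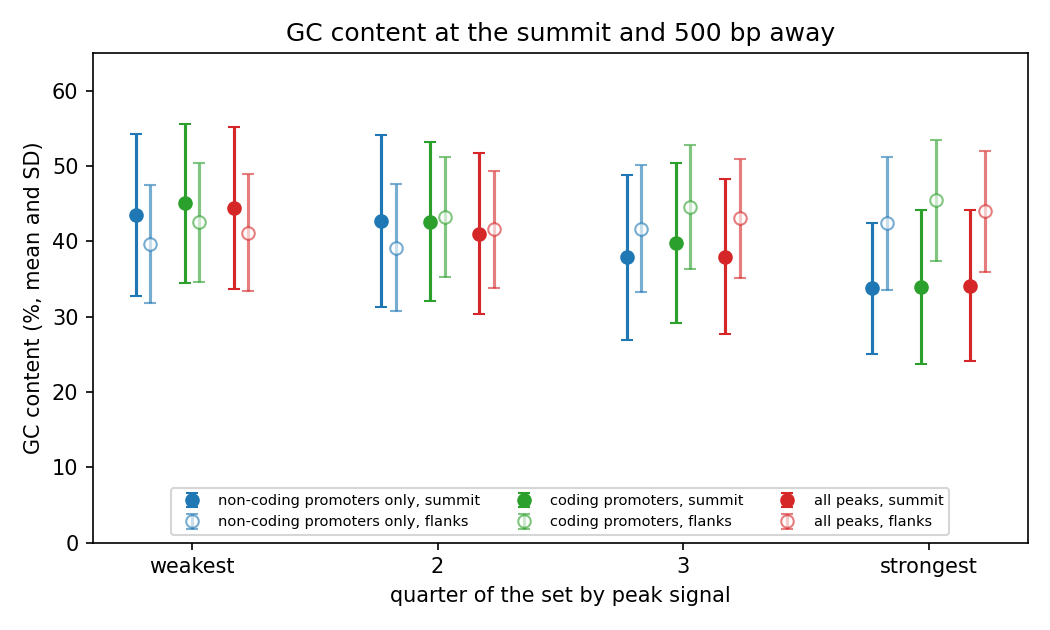
Mean and SD of G and C content (%) within 50 bp of the summit (filled) and in the flanks 500 bp away (open) by rank of peak signal in groups of 25% of each set, for the 233 peaks, the coding-promoter peaks and all main-arm peaks. The summit value falls from 43.5% in the weakest 25% to 33.7% in the strongest for the 233, while the flank value does not fall.

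Of the letters searched, those of the DREF element and of Ohler motif 1 were not found at these summits, while TATAAA and GAGAG were about as frequent as at coding promoters. The DREF and BEAF-32 element TATCGATA was within 50 bp of 0 of the 233 summits (3 counts, taken as the limit of a count of 0, would be 1.29%, and the Wilson limit is 1.62%), against 171 of 4181 at coding promoters (4.09%, 3.53 to 4.73), 5 of 2587 away from a TSS and 176 of all 7001 (2.51%). In the flanks of the 233 it was found in 4 of 466 windows 500 bp away and in 1 of 466 windows 1000 bp away. The Ohler motif 1 letters GGTCACACT were in 0 of 233, against 72 of 4181 (1.72%) at coding promoters and 6 of 2587 (0.232%) away from a TSS. Over all peaks they were in 78 of 7001 (1.11%). The Wilson limit for 0 of 233, 1.62%, lies above that share, so this 0 cannot be told from the share over all peaks. The odd-skipped family motif ACAGTAGC and its core CAGTAGC were in 0 of 233, but they were rare at all peaks too, with 9 and 52 of 7001. TATAAA was in 17.6% of the windows, 16.7% of the flanks and 14.4% of coding-promoter windows, and GAGAG in 12.02%, 11.8% and 13.3%. CAGCTG was in 3.004% of the windows and 3.65% of the flanks, against 6.15% at coding promoters. Its share was 4.94% of all peaks and 3.17% of peaks away from a TSS, so the lower share was not particular to the 233. Both strands were searched, TATCGATA reads the same on both, and ACAGTAGC contains its core.

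The limits of the rule cut through similar peaks. Just inside the 1000 bp from a non-coding TSS were asRNA:CR44093 (966 bp, 95.9), CR43972 (946 bp, 88.2) and tRNA:Thr-AGT-1-1 (945 bp, 148.0), and just outside it were CR42490 (1009 bp, 101.5), lncRNA:CR44241 (1018 bp, 78.4) and lncRNA:CR42719 (1018 bp, 210.0). Just far enough from a coding TSS were asRNA:CR44114 (1002 bp, 82.5), lncRNA:CR34046 (1022 bp, 136.5) and asRNA:CR45538 (1024 bp, 145.6). Left out as too close to one were asRNA:CR45160 (993 bp, 90.4), lncRNA:CR44985 (985 bp, 184.3) and tRNA:Leu-CAA-2-1 (981 bp, 101.3).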

How the data were processed

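The build was dm6, per the labels. Peak lists were used as the authors deposited them, and the text files beside them say that each came from each replicate's or both replicates' alignments and a control and was compared by the irreproducible discovery rate (IDR). Aligner and peak caller: not given in the sources used here. The signal of a peak is the authors' deposited value over a control, with no scale stated. Each peak's summit offset is in the deposited lists as another number per peak, counted from the peak's start. The main list held 7002 peaks (7001 on the 6 main arms), and the conservative one 4929. Replicate 1 had 4490 thresholded and 91315 ranked peaks of its own, and replicate 2 had 4626 and 97987. No reads are counted in them, so depth is unknown.

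Gene models came from Ensembl release 115 (annotation 6.54), without transposable elements, and bases from the RefSeq copy of genome release 6. Positions count from 1. Hairpins formed a class of their own, and mature arms gave no start sites. An overlap meant 1 bp or more in common. Motifs were counted on both strands within 50 bp of the summit. Intervals are 95% Wilson intervals, or order-statistic intervals for medians. The start-site code was checked against direct searches on placed positions. Genes were named by signal within each class (up to 12 ncRNA, 6 tRNA, 6 hairpins, 4 snoRNA, 4 snRNA and 4 pseudogenes), with the listed known genes and the 3 peaks at each limit; the strongest asRNA peaks, snRNA:U1:21D, lncRNA:Vinr, the hairpin hosts, the neighbours of sob and the remaining hairpins were chosen after their values were seen. The members, lists and motifs were chosen with earlier results of these data known. Python 3.11.15, pandas 2.3.3 and scipy 1.17.1 were used.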

Additional observations from a re-analysis of the deposited data

How the results depend on the processing

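The share of peaks at non-coding promoters alone was 3.33% and became 2.60% with both distances at 500 bp, 3.84% at 2000 bp and 2.44% with coding TSSs excluded to 2000 bp. The ratio of medians became 1.04 in the stronger 50% of peaks. The share in both own lists, 38.6%, became 75.5% in the stronger 50%, 55.9% in the conservative list and 27.9% with an overlap of 50% of both peaks; with only 1 replicate's list required it was 57.5% to 60.5%. The share within 250 bp, 38.2%, was 36.1% to 46.4% when 1 replicate's own list replaced the main list, and by the distance used 17.2% within 100 bp and 65.7% within 500 bp. Non-coding genes with a summit, 15.6%, became 11.9% in the conservative list, 9.10% in the stronger 50%, 9.15% at 500 bp and 24.2% at 2000 bp, and 10.3% to 11.6% with 1 replicate's list. The cause of these moves was not tested, except that a distance or a shorter list changes the count by its construction. Of the alternatives, 47 values stayed within their interval or spread and 37 moved. The count of 0 for TATCGATA stayed at 0 in each alternative tried. Depth is unknown, so no limit from depth can be given. No paired analysis was possible because there is 1 group.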
